A study of Mus musculus with 102 samples.

Results

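The CaM kinase II subunits are encoded by 4 mouse genes, Camk2a, Camk2b, Camk2d and Camk2g, which were taken by symbol as 4 of the 51810 gene rows of 3 deposited RNA sequencing tables. They were selected on their levels, on their spread between libraries of 1 group and on the genes that varied with Camk2b in spleen, so those values are given as descriptions without a test. The tables hold spleen from male mice labelled mTOR and WT, with 3 animals of each genotype at 5 months (young) and 3 of each at 21 or 23 months (old), and spleen and brain from 45 further male mice, all given as WT. By age these were 7 mice of 3 months, 9 of 5 months, 8 of 8 months, 9 of 14 months, 7 of 20 months and 5 of 26 months. All titles carry BL6J. The labels name the mTOR genotype without its allele, and the old mTOR group holds 1 animal of 21 months (replicate 2) and 2 of 23 months (replicates 1 and 3), while the old WT group holds 1 of 21 months (replicate 1) and 2 of 23 months. Replicate numbers were given in the order of the sample list and pair no animals across genotypes. Values are normalized read counts unless a scale is named.

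CaM kinase II is a serine/threonine kinase that assembles into a multi-subunit ring, is switched on by calcium-loaded calmodulin and can phosphorylate itself so that activity outlasts the calcium signal. The alpha subunit (Camk2a) is known from excitatory neurons of the forebrain, where it is a main protein of the postsynaptic density, and the beta subunit (Camk2b) binds F-actin there. The delta (Camk2d) and gamma (Camk2g) subunits are found in many tissues, delta above all in heart, and in lymphocytes the family acts downstream of antigen-receptor calcium signals. Spleen is a mixture of B cells, T cells, plasma cells, macrophages, red cell precursors, vessels and smooth muscle.

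Camk2b held the largest share of the subunit level in spleen, and Camk2d was second, so their promoters are shown. The 250 bases upstream of their RefSeq start sites (GRCm38.p6) have every CG dinucleotide in capitals, Camk2b from chr11:6065749-6065998 (minus strand) and Camk2d from chr3:126596701-126596950 (plus strand). At least 1 GENCODE transcript of each gene starts farther upstream, so both windows lie inside the annotated gene bounds.
Camk2b: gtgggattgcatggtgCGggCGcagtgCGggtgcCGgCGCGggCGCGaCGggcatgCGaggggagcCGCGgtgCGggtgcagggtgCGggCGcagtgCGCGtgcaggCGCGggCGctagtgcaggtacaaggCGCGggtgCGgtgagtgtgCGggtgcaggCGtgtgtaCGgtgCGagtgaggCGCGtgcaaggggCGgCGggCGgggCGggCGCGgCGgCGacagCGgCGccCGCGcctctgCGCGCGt
Camk2d: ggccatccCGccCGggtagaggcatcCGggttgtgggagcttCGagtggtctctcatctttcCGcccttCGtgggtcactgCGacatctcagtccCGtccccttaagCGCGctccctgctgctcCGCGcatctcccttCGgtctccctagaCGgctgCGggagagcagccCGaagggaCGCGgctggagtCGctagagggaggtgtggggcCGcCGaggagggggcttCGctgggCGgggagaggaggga
The Camk2b window holds 44 CG dinucleotides and 78.4% G or C, and 99.5% of the 32851 promoter windows of the same length hold fewer. The Camk2d window holds 23, with 86.7% of windows holding fewer, and the median window holds 6. Neither window holds, on either strand, the octamer ATGCAAAT (in 1.60% of all windows), AGATAA for GATA factors (9.99%), or the motifs searched for EBF (0.779%) and NF-kappaB (1.41%).

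Libraries held 4072076 to 13655235 reads in genes in brain, 3031246 to 11702988 in ageing spleen and 7733716 to 14112504 in the mTOR table. In 2 pairs of brain libraries (5 months replicates 1 and 6, 8 months replicates 4 and 7) read counts were compared over genes with few reads (5251 and 5212 genes). Their variance was 0.484 and 0.591 times that of sampling noise. Each pair differed by less than the sampling noise and was counted as 1 sample, which leaves 43 in brain. Marker genes bore out the tissue labels: Snap25, a synaptic vesicle fusion protein, averaged 26857 in brain at 3 months, and Cd79a, part of the B-cell receptor, averaged 3308 in spleen at that age. Ms4a1, another B-cell gene, was listed at 0 in every spleen. Mtor itself, the gene the genotype is named for, stood at 218, 242 and 286 in young and 229.7, 256 and 276 in old mTOR spleens, against 326, 339 and 368 in young and 346, 342 and 329.7 in old WT spleens, without overlap. In these bulk samples, fewer cells of a type and less RNA per cell cannot be told apart.

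The 4 genes lie on separate chromosomes (GRCm38, GENCODE M21). Camk2a (ENSMUSG00000024617) is at chr18:60925618-60988152 on the plus strand, and Camk2b (ENSMUSG00000057897) at chr11:5969644-6066362 on the minus strand. Camk2d (ENSMUSG00000053819) is at chr3:126596302-126846326 on the plus strand, and Camk2g (ENSMUSG00000021820) at chr14:20734875-20794088 on the minus strand. No annotated gene overlaps Camk2b or Camk2g, and those that overlap Camk2a and Camk2d were listed at a mean of 0. Windows of 50 bases from the transcripts of each gene were never shared with transcripts of another of the 4. At most 0.293% (Camk2a) were shared with any gene at all, and 0.159% for Camk2b, so the subunit genes can be told apart at that read length. The sources used here do not give the read length.

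Brain and spleen differed in their leading subunit. Per kilobase of merged exon, Camk2b made up 77.5% ± 12.1 (SD, n = 45) of the summed level of the 4 genes in ageing spleen, Camk2d 14.5% ± 7.75, Camk2g 6.31% ± 3.77 and Camk2a 1.69% ± 1.32. In brain the summed level per kilobase was 70.4% ± 1.99 (n = 43) Camk2a, 17.7% ± 1.72 Camk2b, 8.84% ± 1.02 Camk2g and 3.02% ± 0.364 Camk2d. Camk2a led in all 43 brain samples. Camk2b led in 44 of 45 ageing spleens, Camk2d leading in the other.

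**Figure D1:**
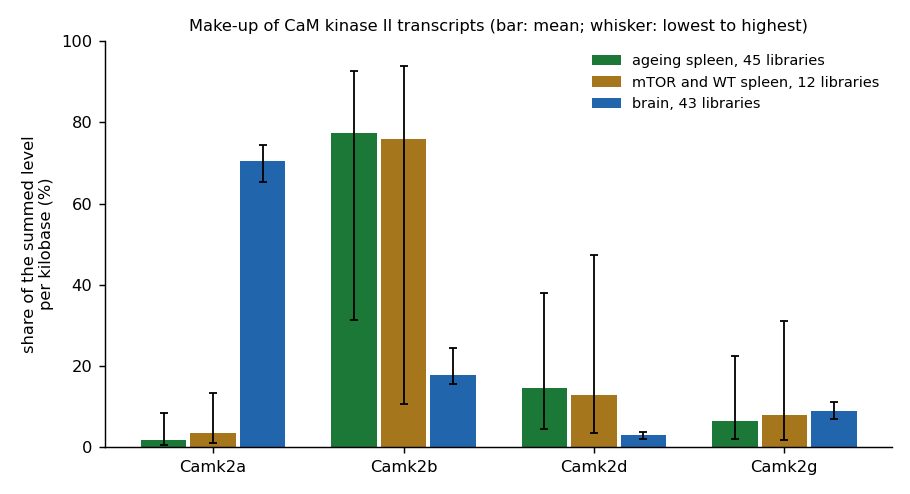
Bars give the mean share (%) of each subunit gene in the summed level per kilobase, for ageing spleen, the mTOR and WT spleens and brain, and whiskers run from the lowest to the highest sample. Camk2a takes 65.2 to 74.5% in every brain sample, while the share of Camk2b in spleen runs from 31.2 to 92.8%.

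In the 12 spleens of the mTOR table the share of Camk2b averaged 76.0% and ran from 10.5 to 94.0%, with Camk2b leading in 10 libraries and Camk2d in the remaining 2. With the mean length of annotated coding transcripts in place of merged exons, the Camk2b share was 74.4% in ageing spleen, and Camk2b led in 43 of 45. In brain that length left Camk2g (5.34%) and Camk2d (5.20%) close together.

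In brain none of the 4 genes differed with age. Across the 6 ages, limma's test for any difference gave adjusted p of 0.972 for Camk2g, 0.984 for Camk2b, 0.984 for Camk2d and 0.993 for Camk2a, 0 of 4 called where 0.482% of 15546 tested genes were called. None of the 4 passed that test at an unadjusted p under 0.05, and edgeR and DESeq2 also called 0.

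Camk2a, the alpha subunit, had 12966, 13274 and 16546 as lowest, median and highest brain value at 26 months, against 12960, 16117 and 17095 at 3 months. The groups overlapped almost wholly, and the log2 difference was -0.08 (SE 0.09; limma adjusted p = 0.831). Camk2b in brain had 4119.5, 4303 and 4659.5 at 26 months, against 3754, 4471 and 5448 at 3 months, and its log2 difference was -0.06 (SE 0.09; adjusted p = 0.869). The values at 26 months lay inside the range at 3 months.

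Camk2d in brain, the subunit best known from heart, had 1854, 1965 and 2183 at 26 months, against 1397, 1795 and 2506 at 3 months, a log2 difference of 0.14 (SE 0.10; limma adjusted p = 0.657). Camk2g, the gamma subunit, had 1413, 1584 and 1711 at 26 months, against 1532, 1674 and 1746 at 3 months, a log2 difference of -0.09 (SE 0.07; adjusted p = 0.717). Both pairs of groups overlapped. With each 26-month library left out in turn the differences of the 4 genes kept their signs, between -0.13 and 0.17 on the log2 scale, and none was called. For 26 against 3 months 0.663% of tested genes were called.

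The spread between brains of 1 age was ordinary for genes of this level. The pooled within-age SD on the log2 scale was 0.15 for Camk2b, 0.15 for Camk2a, 0.17 for Camk2d and 0.11 for Camk2g, against a median of 0.17 over the 1767 brain genes with a mean of 1000 or more. Camk2g ranked 1642 of 1767 from the most variable, so 7.07% of those genes varied less.

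In spleen Camk2b varied more than almost any gene of its level. Its within-age SD was 1.00 on the log2 scale, rank 15 of the 1331 genes with a mean of 1000 or more, whose median was 0.35. The 45 values ran from 429.6 (26 months, replicate 1) to 22234 (8 months, replicate 8), a 51.8-fold range around a mean of 7435 ± 4491 (SD). Camk2d, with a mean of 2580 ± 602, had a within-age SD of 0.34 and rank 707 in the same set. Camk2g averaged 311 ± 60.2 and Camk2a 92.7 ± 27.3, both under the mean of 1000, and their SDs of 0.30 and 0.38 lay below the median of 0.40 over the 10521 genes with a mean of 50 or more.

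The wide range of Camk2b was present at every age. Lowest, median and highest were 2806, 7618 and 9142 at 3 months, 2380.0, 6920 and 11844 at 5 months, 3573, 10433 and 22234 at 8 months. At 14 months they were 2138, 5289.8 and 13091, and at 20 months 3369.7, 7683 and 16928. The 5 values at 26 months were 429.6, 1552, 10068, 6853 and 4858. Each age overlapped every other. By median the order from high to low was 8, 20, 3, 5, 14 and 26 months, and the step between neighbours was smaller than the SD within either age.

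No subunit gene passed the test for age in spleen. The test for any difference among the 6 ages gave adjusted p of 0.154 for Camk2d, 0.164 for Camk2a, 0.231 for Camk2b and 0.836 for Camk2g, 0 of 4 called where 14.6% of 16243 tested genes were. edgeR and DESeq2 also called 0 of 4, and at an unadjusted p under 0.05 limma passed 2 of the 4, Camk2a and Camk2d. Without replicate 3 of 26 months Camk2d was called (limma adjusted p = 0.0301), in a fit that called 3996 of 16211 genes.

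For 26 against 3 months Camk2b had a log2 difference of -1.14 (SE 0.55; limma adjusted p = 0.288), in a contrast that called 0.369% of genes. That share rested on single libraries as well, as the 60 genes called became 0 without replicate 2 of 26 months, 3 without replicate 5, 16 without replicate 1, 682 without replicate 4 and 1789 without replicate 3. The estimate rested on single animals: it was -0.44 without replicate 1 of 26 months, -1.58 without replicate 3, and -0.54 with DESeq2 on recovered reads. Camk2a in spleen had 94.9, 99.4, 158, 101 and 105 at 26 months, against a lowest, median and highest of 50.3, 77.6 and 109 at 3 months. The values at 26 months sat in the upper part of the 3-month range or above it, a log2 difference of 0.51 (SE 0.23; adjusted p = 0.251). At 20 months Camk2a had 73.7, 106 and 180.0, against the 3-month values above, a log2 difference of 0.52 (SE 0.21; adjusted p = 0.0981), where 10.7% of genes were called. These Camk2a values rest on 61 to 207 reads per library at 20 months and 23 to 165 at 3 months.

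Camk2d in spleen had 1286, 2291 and 3414 at 26 months, against 1698, 2659 and 3355 at 3 months, with overlap (log2 difference -0.34, SE 0.20; limma adjusted p = 0.393). Camk2g had 216, 260.5 and 348 at 26 months, against 225.5, 329 and 384 at 3 months (log2 difference -0.16, SE 0.18; adjusted p = 0.690).

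**Figure D2:**
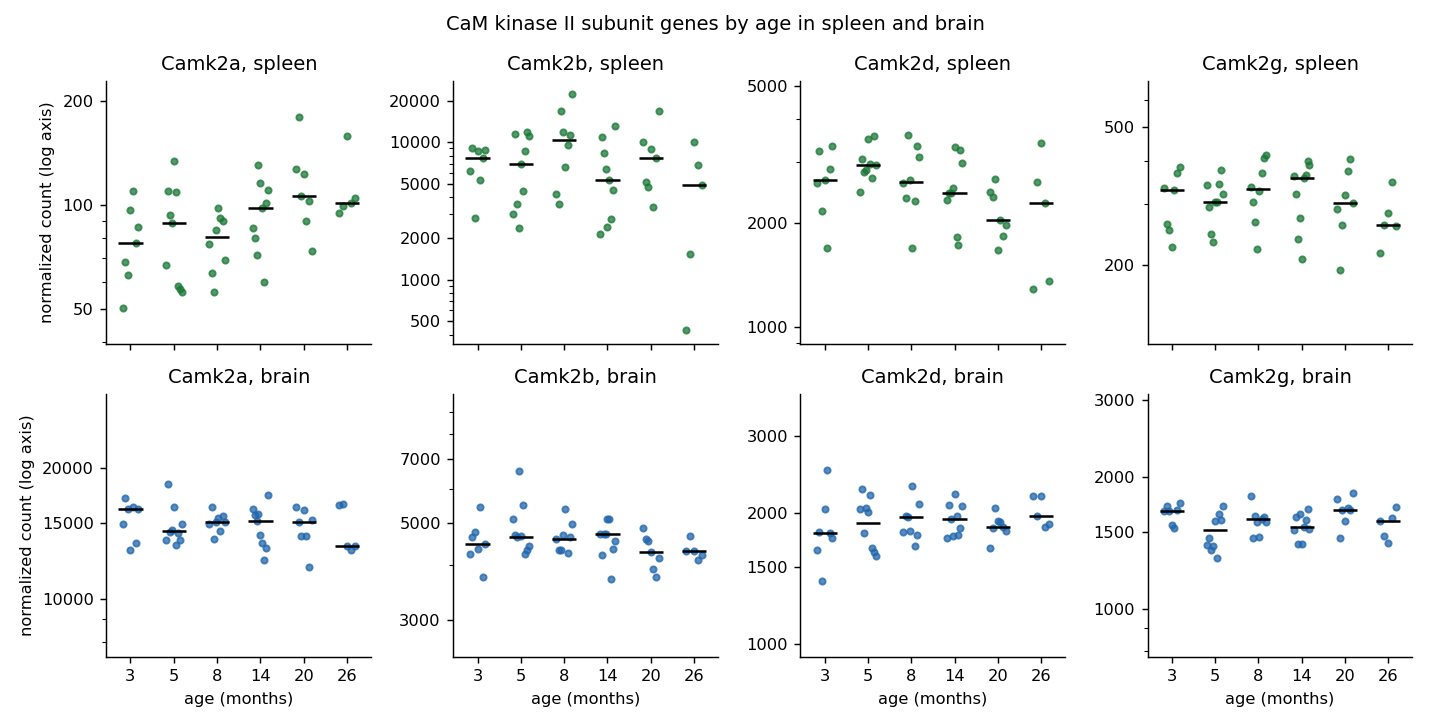
Points are single libraries and black lines group medians of the normalized count (log axis) for each subunit gene by age in months, spleen in the upper row and brain in the lower. Camk2b in spleen spreads from 429.6 to 22234, while in brain it stays between 3715 and 6564.

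Spleens labelled mTOR had less Camk2b than WT spleens. The young mTOR spleens had 11843, 9835 and 8566, against 20056, 22356 and 17193 in young WT spleens. The old mTOR spleens had 226, 9671 and 513, against 37279, 31910 and 18145 in old WT spleens. Every mTOR value lay below every WT value at both ages, and the values of the 2 old mTOR animals of 23 months lay far below all the others. Averaged over age, the log2 difference of mTOR against WT was -2.86 (SE 0.66; limma adjusted p = 0.0198). It was the 1 of the 4 subunit genes called, in a contrast that called 7.93% of 15512 tested genes and 4.73% as lower. Of all tested genes, 2.37% had every mTOR value below every WT value.

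Within age, the old spleens gave a log2 difference of -4.74 (SE 0.94; limma adjusted p = 0.0265), where 1.81% of genes were called and 10.1% had every mTOR value below every WT value. The young spleens gave -0.98 (SE 0.94; adjusted p = 0.602), where 1.83% were called and 11.8% lay wholly below. The SE is shared by both ages and carries the wide spread of the old mTOR animals. The difference between the old and the young effect was -3.76 (SE 1.32; adjusted p = 0.787), and so the 2 ages are not shown to differ. 0 of 15512 genes passed that test with limma, 850 had an unadjusted p under 0.05, among them Camk2b.

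The call on Camk2b depended on the tool. edgeR's quasi-likelihood test on recovered reads gave a log2 difference of -2.03 (adjusted p = 0.0773) averaged over age and -3.07 (adjusted p = 0.127) in old spleens, and DESeq2 gave adjusted p of 0.0518 and 0.0620. In limma the averaged difference was called without any 1 of the 12 libraries, from -3.67 to -2.31 (adjusted p 8.4e-06 to 0.0486). Without both 23-month mTOR libraries, an alternative chosen after the data were seen, it was -1.25 (SE 0.21; adjusted p = 0.00992). In old spleens alone that left -1.53 (SE 0.35; adjusted p = 0.168), with the lone old mTOR animal assumed to vary like the other groups. Without the 21-month mTOR library (replicate 2) the difference between the old and the young effect was -5.37 (adjusted p = 0.00099) and old against young mTOR -4.87 (adjusted p = 0.000108), against -3.26 (adjusted p = 0.344) with all 3. That fit called 1 of 15448 genes for the difference of effects, where 0 of 15512 were called with all 3 animals. For old against young mTOR it called 42 of 15448 genes, where 0.00645% were called with all 3 animals. Camk2b was chosen in part on its spread within groups, which the left-out animal shaped, so the p-values of that fit are descriptions only.

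Camk2a followed the same direction at a far lower level. Its values were 194, 178 and 186 in young mTOR spleens, against 227, 228 and 278.2 in young WT spleens, without overlap. In old spleens they were 195, 216 and 283 in mTOR, against 275, 301 and 310.4 in WT, with 1 mTOR value inside the WT range. The averaged log2 difference was -0.38 (SE 0.11; limma adjusted p = 0.0520), which DESeq2 on recovered reads called (adjusted p = 0.0282). For that contrast DESeq2 called 1897 of 15512 genes, where limma called 1230. The plasma cell markers, which were lower in every mTOR spleen, had r of 0.93 and rho of 0.92 with Camk2a over the 12 libraries and r of 0.79 on deviations from group means, and their part in the Camk2a difference was not tested.

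Camk2d had 3000.0, 2667 and 2408 in young mTOR spleens, against 3296, 3806 and 2534 in young WT spleens, and 2502, 1979 and 2746 in old mTOR spleens, against 3491, 2934 and 2594 in old WT spleens. The genotypes overlapped at both ages, and the averaged log2 difference was -0.28 (SE 0.12; limma adjusted p = 0.179). Camk2g ran from 404.6 to 510.3 over all 12 libraries, and its averaged log2 difference was 0.02 (SE 0.09; adjusted p = 0.888). Within genotype and age, Camk2b had an SD of 1.46 on the log2 scale, rank 14 of the 2316 genes with a mean of 1000 or more (median 0.18), while Camk2d ranked 629 with 0.23.

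**Figure D3:**
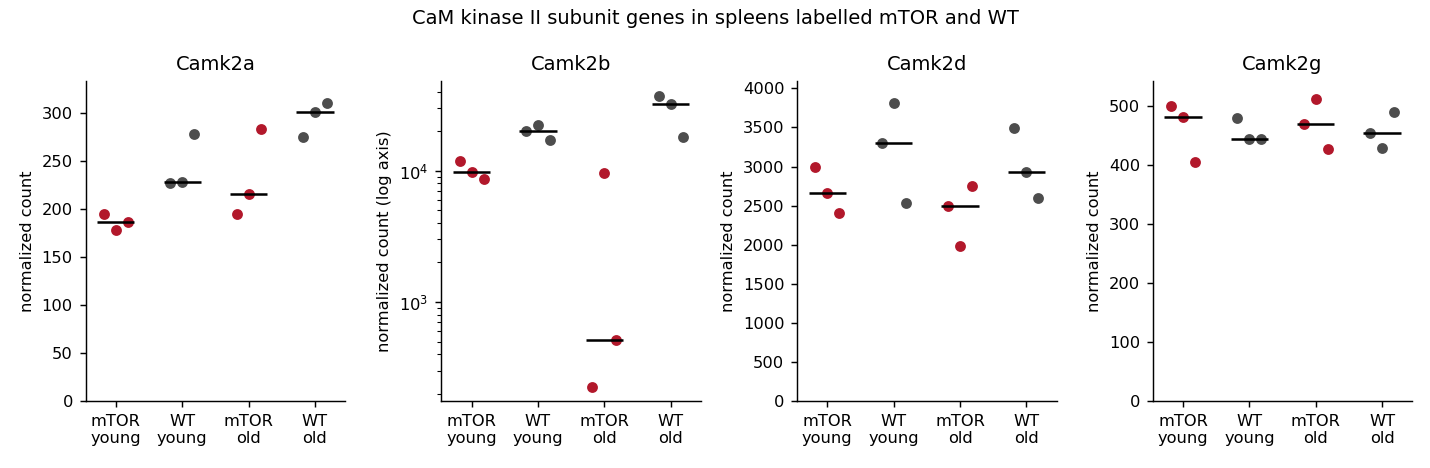
Points are single spleens and black lines group medians of the normalized count, for mTOR and WT animals at 5 months (young) and 21 or 23 months (old), with a log axis for Camk2b only. Camk2b falls to 226 and 513 in the 23-month mTOR spleens, against 18145 to 37279 in old WT spleens.

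Markers of several other cell types differed between the spleens of the mTOR table. The summed level of the 6 smooth muscle markers (Acta2, Myh11, Tagln, Des, Cnn1 and Smtn, none at 0) was 3351 to 3443 in young mTOR spleens, against 2162 to 3285 in young WT spleens. In old spleens it was 5301, 3007.3 and 5973 in mTOR, against 2769, 2770.3 and 3058 in WT, so the 2 mTOR animals with the least Camk2b had the most. The 6 plasma cell markers (Jchain, Xbp1, Mzb1, Sdc1, Prdm1 and Irf4, none at 0) summed to 10943 to 15657 in young mTOR spleens, against 29515 to 50350 in young WT spleens. In old spleens they summed to 16758 to 24598 in mTOR, against 28556 to 49119 in WT. The 6 natural killer cell markers (none at 0) summed to 918 to 1339.7 in the 6 mTOR spleens, against 1599.5 to 2697 in the 6 WT spleens, without overlap. The 5 adipocyte markers (none at 0) summed to 957 to 2314 in mTOR spleens, against 186.3 to 471 in WT spleens, again without overlap. The 6 endothelial markers (none at 0) summed to 6685 to 8149 in mTOR spleens, against 4495 to 7337 in WT spleens. The exocrine pancreas markers summed to 11583, 64.0 and 19581 in young mTOR spleens, against 114, 3706 and 1400 in young WT spleens. They stood at 80.6 to 170 in old spleens, and the part of neighbouring tissue in the marker levels was not tested. The erythroid markers summed to 40745 and 3280.5 in the 23-month mTOR spleens, so these animals differed from each other. Over the 10 libraries other than the 23-month mTOR animals, the mean log2 level of the markers had r with Camk2b of -0.87 for endothelium, -0.85 for smooth muscle, -0.55 for adipocytes, 0.63 for natural killer cells and 0.83 for plasma cells. The B-cell markers had r of -0.76 (rho -0.71) with Camk2b in those 10 libraries. Lists named for brain cells reached similar r there, 0.76 for oligodendrocytes, 0.70 for astrocytes and -0.69 for microglia, while the T-cell markers had -0.24. Those 10 libraries still include the genotype difference, so these r hold it as well. The part of these cells in the Camk2b difference was not tested. The 6 neuronal markers with a level above 0 (Nefl was listed at 0) summed to 330 to 511 in mTOR spleens, against 411 to 652 in WT spleens, far under the Camk2b level in 10 of the 12 libraries. Over the 10 libraries other than the 23-month mTOR animals their mean log2 level had r of 0.63 with Camk2b. Their part in the Camk2b level was not tested either.

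Among the 2315 other genes with a mean of 1000 or more in that table, the 8 with the highest r with Camk2b were Cd2, an adhesion receptor of T and natural killer cells, the RNA-decay factor Zc3h12d, Dock2, which drives lymphocyte migration, Ube2q1, Ptprc, which encodes the leukocyte antigen CD45, Plac8, the ubiquitin ligase Cblb, and Lrrfip1. The 8 lowest were Myh11, the heavy chain of smooth muscle myosin, Ctnna1, an alpha catenin, the stromal chemokine Cxcl12, Pik3r1, a regulatory subunit of PI 3-kinase, Nr2f2, Aplp2, Ltbp4, a matrix protein that binds latent TGF-beta, and the transcription factor Nfia. The 23-month mTOR animals stand so far apart that no r of a single gene with Camk2b over all 12 libraries is given. Over the other 10 libraries, which still include the genotype difference, r was 0.87 for Cd2, 0.81 for Ptprc, 0.76 for Cblb, 0.20 for Plac8, -0.79 for Ltbp4, -0.73 for Nfia, -0.62 for Cxcl12 and -0.60 for Myh11. In those 10 libraries 417 genes had r of 0.5 or more with Camk2b and 302 had -0.5 or less.

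Myh11 had 2398, 1161 and 2647 in old mTOR spleens, against 1036, 1087 and 1210.0 in old WT spleens, so that the 23-month mTOR animals stood above the other 10 spleens, whose highest value was 1418.5 in a young mTOR animal. Cxcl12 had 12675, 6918 and 11467 in old mTOR spleens, against 4562, 4962 and 7228 in old WT spleens. These genes were chosen on Camk2b in these same libraries, so no genotype test is given for them.

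**Figure D4:**
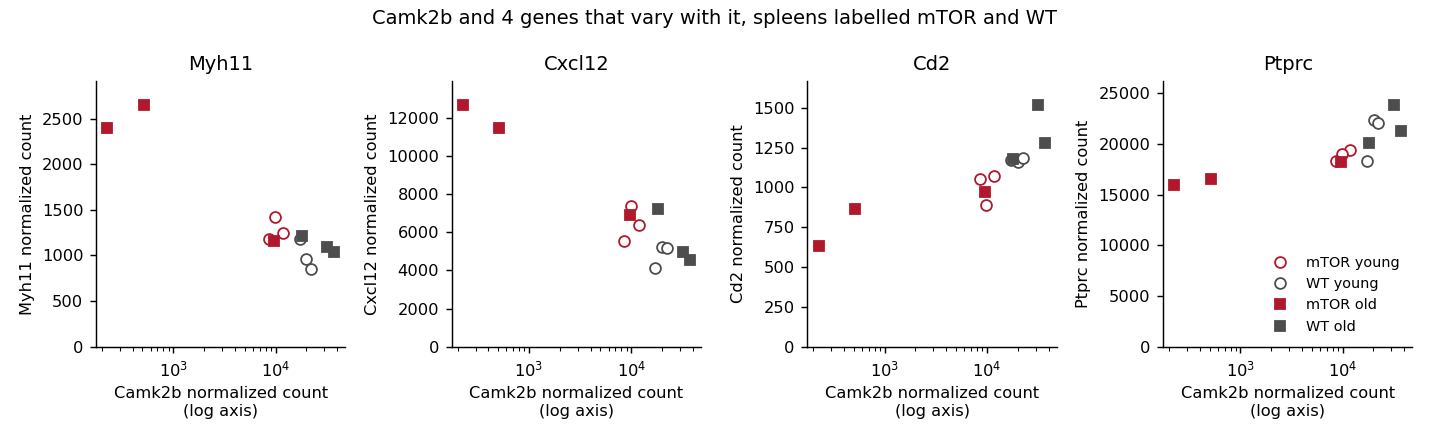
Each point is 1 spleen, with Camk2b on a log x axis and the normalized count of Myh11, Cxcl12, Cd2 or Ptprc on the y axis; red marks mTOR and grey WT, open circles young and filled squares old animals. The 23-month mTOR spleens, at 226 and 513 for Camk2b, hold 2398 and 2647 Myh11 against 853 to 1418.5 elsewhere.

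In the 45 ageing spleens 134 of 1330 genes had r of 0.5 or more with Camk2b and 52 had -0.5 or less. The 8 highest were Dock8 (r 0.69), an exchange factor of lymphocytes, Rp9 (0.68), the actin regulator Wasf2 (0.67), Pou2f2 (0.65), a B-cell transcription factor, the splicing factor Prpf38b (0.64), Atxn7 (0.64), the chromatin remodeller Chd2 (0.64) and Nfkbia (0.64), the inhibitor of NF-kappaB. The 8 lowest were Ghitm (-0.67), Sdcbp (-0.64), the platelet chemokine Ppbp (-0.62), Chmp4b (-0.62), Sept2 (-0.61), the globin gene Hbb-bs (-0.61), the lysosomal protease Ctsb (-0.61) and Sat1 (-0.61). Few of the related genes were shared with the mTOR table, taken over all 12 libraries with the 23-month mTOR animals included. Of 1266 genes compared in both, 127 had r of 0.5 or more in ageing spleens, 149 in the mTOR table and 15 in both. For r of -0.5 or less the counts were 50, 42 and 2. The shared genes were 11.8% of the 127 and 4% of the 50. Both shares lay close to the share of all 1266 genes that reached the same bar in the mTOR table, so no shared relation is read from them.

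The Camk2b relations in the ageing spleens rested in good part on the extremes. With Spearman's rho 76 genes reached 0.5, and without the 2 spleens farthest from the Camk2b median 26 did. For Dock8 the values were a rho of 0.58, an r of 0.71 on deviations from age means and 0.53 without those 2 spleens. All values share library, depth and size factor, and r with the log2 number of reads was -0.11 for Camk2b. With the share of reads taken by Malat1, a nuclear RNA, Camk2b had r of 0.35, and 0.34 on deviations from age means. The part of RNA quality in the Camk2b relations was not tested.

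The mean log2 level of the megakaryocyte and platelet markers had r of -0.60 with Camk2b, the erythroid markers -0.52, the red pulp macrophage markers -0.50 and the B-cell markers 0.43. The microglia markers, which tissue macrophages share in part (P2ry12 was listed at 0), had r of 0.59 but a rho of 0.33. The smooth muscle markers, which stood with low Camk2b in the old mTOR spleens, had r of -0.16 in the ageing spleens. Which of these cells carries Camk2b was not tested.

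Camk2d in ageing spleen was tied far more tightly to other genes than Camk2b. Of 1330 genes 545 had r of 0.5 or more with Camk2d and 186 had -0.5 or less, led by Abhd17b (0.96), a depalmitoylating enzyme, the kinase gene Prkce (0.95) and Tmem163 (0.94). Long genes stood out: the 50 genes with the highest r spanned a median of 234 kb in the genome, against 17.6 kb for the 50 with the lowest r and 39.1 kb for all. For Camk2b in the same spleens those medians were 69.7, 19.8 and 39.1 kb. The level of Camk2d had r of 0.68 with the share of reads taken by Malat1, a nuclear RNA, and -0.45 with the log2 number of reads, and the part of RNA quality or of nuclear RNA in these relations was not tested. In the mTOR table, where the Malat1 share ran from 0.581 to 0.928% against 0.579 to 3.18% in the ageing spleens, the 50 genes highest with Camk2d spanned a median of 41.5 kb, against 23.6 kb for the lowest 50 and 36.0 kb for all.

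**Figure D5:**
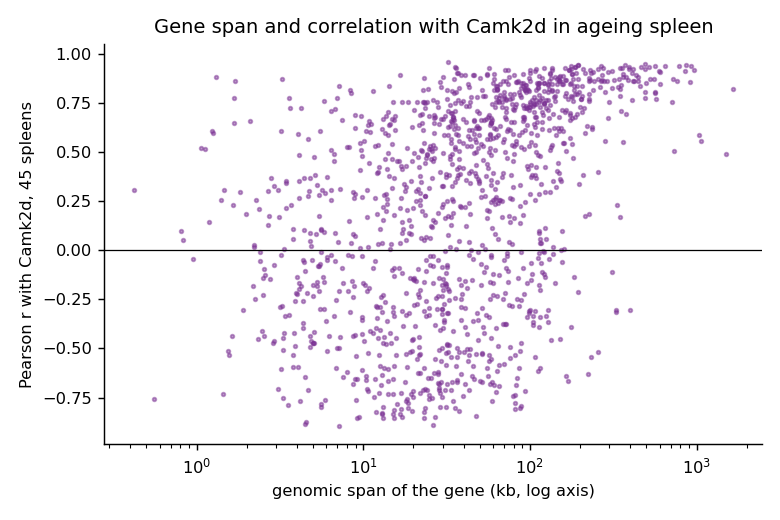
Each point is 1 gene with a mean of 1000 or more in ageing spleen, with its genomic span in kb on a log x axis and its Pearson r with Camk2d over 45 spleens on the y axis. The 50 genes with the highest r have a median span of 234 kb, against 39.1 kb for all.

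Camk2d ran against macrophage markers and with B- and T-cell markers across the 45 spleens. Its r was -0.85 with the red pulp macrophage markers, -0.71 with the neutrophil markers, 0.67 with the T-cell markers and 0.60 with the B-cell markers. Camk2d also had r of 0.68 with the Malat1 share in these spleens, and the part of RNA quality or of nuclear RNA in the marker relations was not tested. Camk2g in spleen was closest to Gnai2 (0.77), an inhibitory G-protein subunit, Tcf25 (0.76) and Mndal (0.70), and 65 genes reached 0.5. Camk2a in spleen had few close genes, H3f3b (0.50), Kcna2 (0.44) and Dst (0.38) being the highest. Between members, Camk2b and Camk2d had r of 0.41 over the 45 spleens and Camk2b and Camk2g 0.33, while Camk2a had r between -0.26 and -0.09 with the other 3.

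In brain Camk2a was closest to Rasgef1a (0.75), the neuronal pentraxin Nptx1 (0.73) and Atp6v1g2 (0.71), a subunit of the vesicular proton pump, and had r of 0.68 with the neuron markers. Camk2b was closest to Fscn1 (0.82), which bundles actin, the proteasome subunit gene Psmd2 (0.78) and Aes (0.76). Camk2d went with the chloride cotransporter Slc12a2 (0.83), Wdr37 (0.80) and Arrdc3 (0.79), and Camk2g with Kalrn (0.69), a synaptic exchange factor, Dock3 (0.65) and Zc3h7b (0.64). Camk2d and Camk2g ran against each other over the 43 brain samples (r -0.52, rho -0.56), and the 2 detected cerebellar granule cell markers had r of 0.71 with Camk2d and -0.69 with Camk2g. The part of dissection in this was not tested.

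In the same mouse, brain and spleen levels were related for Camk2g only by the test used. On deviations from age means over 43 animals, r was 0.43 and rho 0.33 for Camk2g (permutation p = 0.00651 for r, adjusted p = 0.0260 over 4 genes, and adjusted p = 0.165 for rho). Without the 2 animals farthest from the brain median r was 0.34 (permutation adjusted p = 0.154), and without animals with a library under 5000000 reads it was 0.42 (adjusted p = 0.125). With values of all 43 not centred on age it was 0.36 (permutation adjusted p = 0.074). The sign stayed in each case, but the call was lost. The titles give the 2 merged brain pairs as different animals, each with its own spleen, and the mean of both spleens stood beside the mean of both brain libraries. For Camk2a r was 0.21 (permutation adjusted p = 0.289) and for Camk2b -0.24 (adjusted p = 0.182). For Camk2d r was -0.08 (adjusted p = 0.601). High Camk2b in a spleen did not go with detectably high Camk2b in the brain of that animal.

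The wider pathway was taken as 7 lists of 72 genes: calmodulins and their buffers, CaMKII inhibitors, other calmodulin-dependent kinases, phosphatases, synaptic partners, calcium entry and stores, and transcription regulators. In brain 71 were tested and 0 were called with limma or edgeR, for 26 against 3 months or for any age difference. In spleen at 26 against 3 months limma called 0 of 67, where 0.369% of all genes were called, and edgeR called 1 (1.49%, where 4.35% were called).

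At 20 against 3 months in spleen 14 of 67 were called, 5 higher and 9 lower (20.9%, where 10.7% of all tested genes were called, 5.99% as higher and 4.68% as lower), with a median log2 difference of -0.07 against 0.00 for all genes. edgeR on recovered reads called 15 of 67, 8 higher and 7 lower, so the balance of directions depended on the tool. Gria2, a glutamate receptor subunit, had a mean of 118 ± 49.6 at 20 months, against 40.4 ± 29.5 at 3 months (n = 7 each), a log2 difference of 1.63 (SE 0.34; limma adjusted p = 0.0018). Shank3 (0.88, SE 0.22), a scaffold protein of the postsynaptic density, also rose in the spleen. Mylk, the myosin light chain kinase of smooth muscle, rose to 2280.2 ± 629 at 20 months, against 1277 ± 766 at 3 months (log2 difference 0.93, SE 0.23; adjusted p = 0.00786). Camk4, a calmodulin-dependent kinase of T cells and neurons, fell to 176 ± 49.5, against 343 ± 82.7 (log2 difference -0.96, SE 0.22; adjusted p = 0.00423).

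Of 17 calcium entry and store genes, 4 fell at 20 months: the store-operated channel subunit Orai2 (log2 difference -0.91, SE 0.29), the release channel Itpr3 (-0.78, SE 0.26), the pump Atp2a3 (-0.63, SE 0.21) and 1 more. Trpm2, a calcium-permeable channel of myeloid cells, rose (0.69, SE 0.23). edgeR called 2 lower in this list, Orai2 and Atp2a3, and 2 higher, so the limma calls on Itpr3 and Trpm2 were lost. Of 12 transcription regulators, Mef2d (-0.49), Creb1 (-0.43) and Nfatc3 (-0.68) fell, and of 9 phosphatase genes the calcineurin subunit Ppp3cc fell (-0.56, SE 0.19). B- and T-cell markers moved with these: Cd79a averaged 1848 at 20 months, against 3308 at 3 months, and Cd3e 181 against 347. Their part in the list counts was not tested. limma's adjusted p for these genes ran from 0.0018 to 0.0480.

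In mTOR against WT spleens averaged over age 5 of 66 were called, 3 higher and 2 lower (7.58%, where 7.93% of all tested genes were called, 3.2% as higher). Ryr2, the ryanodine receptor best known from heart, had 114, 125 and 83.7 in young mTOR spleens, against 31.0, 39.6 and 42.6 in young WT spleens. In old spleens it had 47.9, 67.3 and 79.6 in mTOR, against 28.01, 33.0 and 49.9 in WT, and its averaged log2 difference was 1.14 (SE 0.19; limma adjusted p = 0.00398). Grin2a (1.45, SE 0.32), an NMDA receptor subunit with at most 42.2 in any of the libraries, was also higher. Cacna1d (-0.80, SE 0.19), a voltage-gated calcium channel, and Cacng8 (-0.75, SE 0.17), an auxiliary subunit of AMPA receptors, were lower. Adjusted p for these 3 ran from 0.0154 to 0.0204 in limma. The calmodulins, the CaMKII inhibitors, the other calmodulin-dependent kinases, the phosphatases and the transcription regulators had 0 called in that contrast.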

How the data were processed

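Brain or spleen tissue was flash frozen, and TruSeq RNA libraries were prepared from its total RNA, per the labels. Alignment tools named in the submitters' processing notes are HISAT2 2.1.0 and SAMtools, beside cutadapt, bcl2fastq 2.20, DESeq2 and R 3.5.1, with GRCm38. The read counter, its annotation and strand use are not given in the sources used here. Each deposited signal value equals a read count over a factor common to its library, and 100% of values came back as whole reads to within 0.01 of a read.

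Tests were run with limma 3.58.1 (R 4.3.3, trend on mean level) after taking log2(value + 1), over genes at 10 or more in at least 5 libraries (ageing) or 3 (mTOR table), 1 mean per group and Benjamini-Hochberg adjustment over all tested genes. A gene is called at an adjusted p under 0.05. As alternatives, edgeR 4.0.16 and DESeq2 1.42.0 were run on recovered reads. For 26 against 3 months in brain, the same in spleen, and mTOR against WT, edgeR called 114, 707 and 1283 genes. limma called 103, 60 and 1230. The limma fits were tested on simulated data.

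Levels per kilobase used merged exons of GENCODE M21, and 250-base windows upstream of RefSeq starts (GRCm38.p6) held the promoters of Camk2b and Camk2d. Correlations used log2(value + 1) over genes with a mean of 1000 or more. Brain and spleen of the same animal were paired by the animal number in the titles, after subtracting age means, and p came from 100000 permutations within age, adjusted over 4 tests. Named partners are the 8 highest and 8 lowest r with Camk2b in each spleen table and the 3 highest for each other pairing of gene and tissue. Predicted genes, receptor segments, Y genes and Xist were left out. Named pathway genes are at most 4 called per list with the smallest p. Some called pathway genes are counted but not reported here by name. The members, gene lists and tests were chosen with earlier results of these data known. Figures used matplotlib 3.10.9 under Python 3.11.15.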

Additional observations from a re-analysis of the deposited data

Results flagged for a closer look

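Of 48 groups of 4 to 10 samples examined for the 4 genes, 2 held a sample set apart from the rest by more than Dixon's 95% limit, and chance flags about 1 group in 20. Camk2b in brain at 5 months had 6564 in replicate 4, where the next highest of the 8 samples had 5299. Camk2a in spleen at 26 months had 158 in replicate 3, where the next highest of the 5 had 105. The same spleen library had the highest Camk2b of its group, at 10068.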

How the results depend on the processing

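Of the single values recomputed for the 4 genes and their shares, 345 kept their direction and side of the threshold, 13 lost and 4 gained a call, 9 changed sign and 3 shares moved by more than their spread. In brain the count of subunit genes called by age was 0 under every alternative run. In spleen it was 0 except when 26-month libraries were left out in turn, which gave 0 to 1. In the mTOR table the count averaged over age was 1 in limma, 0 in edgeR and 1 in DESeq2 (Camk2a in place of Camk2b). Those fits called 1230, 1283 and 1897 of 15512 genes. The count was 1 to 2 when each library was left out in turn. Camk2a was added without old mTOR replicate 3 (limma adjusted p = 0.0220), in a fit that called 977 of 15435 genes. Without 1 library of the old groups, the call on Camk2b in old spleens was lost for each but the 21-month mTOR library, with adjusted p from 0.0504 to 0.101. The Camk2g difference changed sign with single libraries left out, running from -0.007233 to 0.07029 averaged over age, -0.04656 to 0.1051 in young and -0.02792 to 0.1014 in old spleens. The count of genes related between brain and spleen was 1, and 0 with values not centred on age, 0 without the 2 animals farthest from the brain median and 0 without libraries under 5000000 reads. The Camk2d r became 0.0114 without those 2 animals. Genes with r of 0.5 or more with Camk2b numbered 134, 128 on deviations from age means, 76 with Spearman's rho and 26 without the 2 farthest spleens. edgeR called 1 pathway gene in spleen at 26 against 3 months, where limma called 0. The cause of these changes was not tested. No paired analysis was possible because the groups hold different animals whose replicate numbers follow sample order, and no label says which animals belong together. That limit concerns the age and genotype contrasts, while brain and spleen of the same mouse were paired by animal number. Depth limits Camk2a in spleen most, which rests on as few as 23 reads in 1 library.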
